A study of Mus musculus with 11 samples.

Results

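NABP1 and NABP2 are the 2 alternative single-stranded DNA-binding subunits of SOSS complexes, and the data compared here are the genome positions at which HIV integrated in mouse cells that made either protein as a fusion. The comparison took the library labelled NABP1 and the library labelled NABP2, which are 2 of 11 libraries in the series and hold 276636 of its 831994 distinct sites. A site was a distinct combination of chromosome, position and strand, in coordinates of the mouse genome build mm9. NABP1 gave 188432 sites and NABP2 gave 88204.

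Both groups were mouse embryonic fibroblasts (MEF) of strain C57BL/6 with the genotype LEDGF-/-. LEDGF is the host protein that normally tethers HIV integrase to chromatin, and its integrase-binding domain (LEDGF-IBD) was fused to NABP1 or NABP2 on a plasmid that was introduced by electroporation. HIV was added 24 h later, the cells grew for 3 more days, and the genomic DNA next to the viral LTR was amplified and sequenced. Both groups therefore lacked LEDGF and both carried a plasmid and the virus, and no library without a fusion enters the comparison. How much of each fusion protein the cells made was not measured here. Each protein had 1 library, so no difference between them carries a test, and every interval given is a 95% interval that covers counting error only.

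SOSS complexes consist of NABP1 or NABP2, the scaffold INTS3 and the small subunit INIP. NABP1 and NABP2 bind single-stranded DNA through an OB fold and are known for their part in homologous recombination and DNA damage signalling. INTS3 is also a subunit of Integrator, the complex that cleaves the 3′ ends of small nuclear RNAs and cuts nascent transcripts near the starts of protein-coding genes.

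The bases around the junctions are shown first because they check where the sites were placed. HIV integrase joins the viral ends across a stagger of 5 bases and has a weak preference for a symmetric target. The most common base at each place from 3 bases before the junction to 8 after it, read 5′ to 3′ with the 5 duplicated bases in capitals, was the same in both libraries:
NABP1: ttgGTAACcaa
NABP2: ttgGTAACcaa
The pattern appeared on the plus strand at the deposited position and on the minus strand 1 base further along. On the plus strand G made up 45.3% of NABP1 first bases and 44.6% of NABP2 first bases, and on the minus strand G reached 45.4% and 44.4% at the second base. The sequences were read with minus-strand positions moved by that base, and every other value below uses the positions as deposited. With that alignment the base composition of NABP1 and NABP2 differed by at most 1.53 percentage points at any place from 10 bases before the junction to 15 after it. Between the GAIIx pools the largest difference was 5.66 points, for C at position -2. The commonest bases were the same in all 4 pools.

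Sequences of 4 windows of 250 bases are printed because they held some of the densest sites of both libraries. The first 3 are the highest-ranked windows by mean sites per 100000 that touch no annotated exon, and the fourth is the one of the 30 densest windows with the lowest ratio of NABP1 to NABP2. All are from the plus strand of mm9, and capitals mark the first genomic base after an LTR junction in either library.
chr11:68888001-68888250: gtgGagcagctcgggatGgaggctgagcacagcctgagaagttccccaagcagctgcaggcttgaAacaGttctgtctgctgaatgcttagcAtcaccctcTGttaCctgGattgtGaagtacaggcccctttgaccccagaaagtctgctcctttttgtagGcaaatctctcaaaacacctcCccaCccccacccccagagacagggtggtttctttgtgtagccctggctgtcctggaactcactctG
chr4:135416001-135416250: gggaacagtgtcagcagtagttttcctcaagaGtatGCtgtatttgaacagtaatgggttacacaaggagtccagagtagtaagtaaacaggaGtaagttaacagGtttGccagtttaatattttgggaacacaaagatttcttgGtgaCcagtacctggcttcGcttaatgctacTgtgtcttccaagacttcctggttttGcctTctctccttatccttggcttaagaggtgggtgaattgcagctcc
chr1:72273751-72274000: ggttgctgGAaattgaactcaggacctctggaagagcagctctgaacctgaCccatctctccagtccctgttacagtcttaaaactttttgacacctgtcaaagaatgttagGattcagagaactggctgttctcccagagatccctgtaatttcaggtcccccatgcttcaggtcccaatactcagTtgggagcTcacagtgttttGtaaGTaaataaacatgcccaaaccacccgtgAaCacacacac
chr11:87286251-87286500: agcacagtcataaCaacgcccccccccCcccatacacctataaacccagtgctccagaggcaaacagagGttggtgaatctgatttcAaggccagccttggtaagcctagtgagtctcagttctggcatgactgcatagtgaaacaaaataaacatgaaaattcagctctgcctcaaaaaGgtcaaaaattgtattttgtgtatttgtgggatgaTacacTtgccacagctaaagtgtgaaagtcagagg
The window on chromosome 11 at 68888001 lay in no annotated gene, 267 bases before a U6 snRNA model, and held 8 NABP1 and 6 NABP2 sites, or 4.25 and 6.80 per 100000. The chromosome 4 window lay in an intron of Srsf10, a splicing factor gene, with 6 sites of each library, or 3.18 and 6.80 per 100000. The chromosome 1 window lay 747 bases from a U2 snRNA model and held 5 NABP1 and 6 NABP2 sites. The fourth lay in an intron of Tex14, 1168 bases from a U3 snoRNA model, and held 1 NABP1 and 6 NABP2 sites. Of the 30 densest windows of this ranking, 15 lay within 5 kb of an snRNA or snoRNA model. The share over all windows was not counted, so that number is a description. The ranking gives a NABP2 site more weight than a NABP1 site, because the NABP2 library is smaller, so no difference between the proteins is read from these windows.

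Each library combined 2 sequencing pools that have to be told apart before the results. A HiSeq lane held entries of both proteins, with 105793 NABP1 sites (56.1% of that library) and 72909 NABP2 sites (82.7%). GAIIx lanes held 82857 further NABP1 sites and 15333 further NABP2 sites. The pools of the same protein shared only 218 exact positions for NABP1 and 38 for NABP2, while the HiSeq pools of the 2 proteins shared 242, so the pools of a protein held almost wholly different positions. Reads were 100 bases on HiSeq and 70 on GAIIx, per the labels. The labels do not say whether the pools came from separate cultures. The NABP2 GAIIx pool stood apart from the others in that it shared 100 exact positions with the INIP library. Of its sites 4.45% had another within 100 bases, against 1.70% of NABP2 HiSeq sites thinned to the same number. Thinning breaks up close pairs, and the NABP2 GAIIx pool was not thinned. Both GAIIx pools held a like excess of same-strand sites 1 to 3 bases apart, given below. The 4.45% is therefore not read as particular to this pool. Many of the values below are therefore given for the whole libraries, for the shared HiSeq lane and for the GAIIx pools, and those with no pool named are for the whole libraries.

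The sites lay at genes of the labelled cell type. All 8 fibroblast markers held sites of both libraries, at 7.25-fold over a uniform density for NABP1 (6.16 to 8.47, 157 sites) and 6.81-fold for NABP2 (5.29 to 8.61, 69 sites). Neuronal markers stood at 0.615-fold and 0.602-fold, and blood markers at 0.417-fold and 0.509-fold. Of the 4 hepatocyte markers, Alb, Apoa1 and Ttr held no site of either library and Hnf4a held NABP1 sites only, 3 in number. Epithelial markers stood at 1.45-fold (0.791 to 2.43) and 2.21-fold (1.06 to 4.06).

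NABP1 sites lay closer to the starts of protein-coding genes than NABP2 sites did. Starts were pooled in the direction of transcription, and density was set against the same number of sites spread evenly over the genome. Density was highest 600 to 800 bases downstream of the start for NABP1, at 7.33-fold over uniform (7.04 to 7.64), and 1400 to 1600 bases downstream for NABP2, at 6.66-fold (6.25 to 7.09). The same bins were the highest in the HiSeq pools, at 7.79-fold and 6.83-fold, and in the GAIIx pools, at 6.79-fold and 5.89-fold. Both libraries had a dip in the 200 bases before the start, at 2.55-fold for NABP1 and 1.65-fold for NABP2. In the whole libraries NABP1 was the denser in every bin from 1 kb upstream to 1400 bases downstream and NABP2 in every bin from there to 5 kb.

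**Figure D1:**
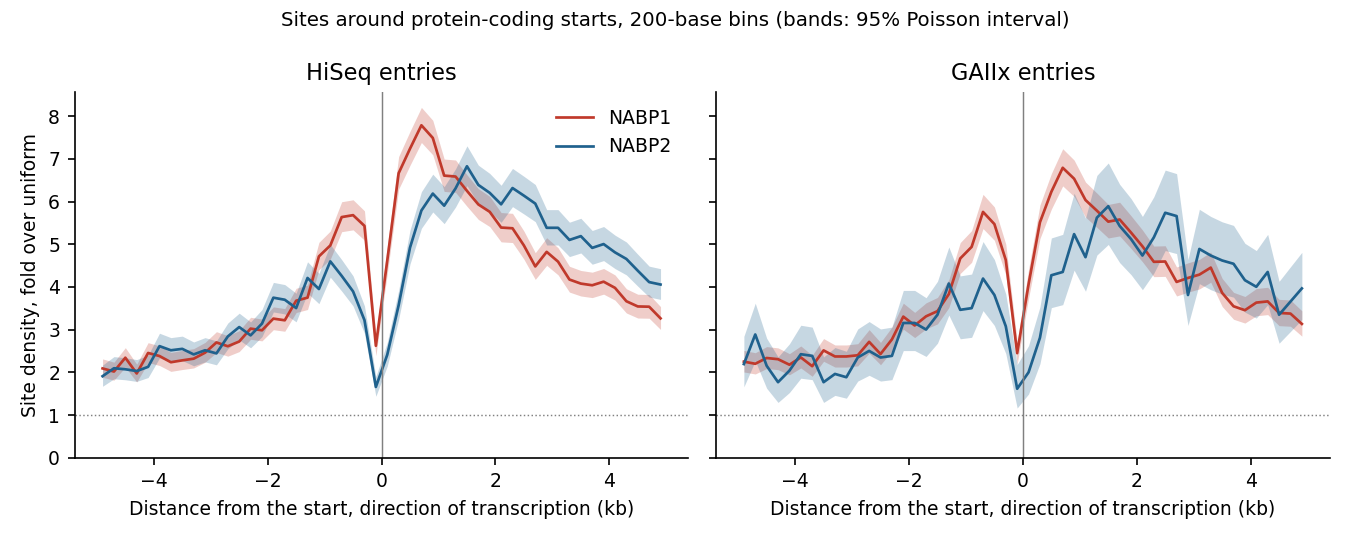
Density of integration sites around 22350 protein-coding starts in bins of 200 bases (y axis, fold over a uniform genome; x axis, distance in kb in the direction of transcription), for HiSeq entries (left) and GAIIx entries (right). In both panels the NABP1 line has its maximum at 600 to 800 bases and the NABP2 line at 1400 to 1600 bases. Farther downstream NABP2 lies above NABP1 in HiSeq, while the GAIIx lines cross, with NABP1 above NABP2 at 2800 bases, for example.

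The first 400 bases of genes held the widest difference of the zones compared. NABP1 stood there at 5.26-fold and NABP2 at 2.89-fold, a ratio of 1.82 (1.69 to 1.96) in the whole libraries, 1.89 (1.73 to 2.05) in the shared lane and 1.99 (1.66 to 2.41) in the GAIIx pools. In the kilobase upstream the ratio was 1.37 (1.31 to 1.44). From 1 to 2 kb downstream the libraries differed little, with a ratio of 0.968 (0.935 to 1.003). From 2 to 5 kb downstream NABP2 was denser, at 5.04-fold against 4.12-fold, a ratio of 0.818 (0.800 to 0.838), 0.828 in the shared lane and 0.880 (0.835 to 0.927) in the GAIIx pools. From 5 to 10 kb downstream the ratio was 0.833 (0.814 to 0.851). The share of sites within 5 kb on either side of a start, was 28.3% for NABP1 and 28.2% for NABP2 in the whole libraries and 27.3% and 25.5% in the GAIIx pools, a GAIIx ratio of 1.07 (1.04 to 1.10).

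The difference near the start was larger at CpG-rich promoters. At 9891 starts whose surrounding kilobase was rich in G, C and CpG, the first 400 bases held 8.16-fold for NABP1 (7.83 to 8.50) and 3.93-fold for NABP2 (3.59 to 4.28). At the other 12459 starts the values were 2.97-fold (2.79 to 3.15) and 2.07-fold (1.86 to 2.30). In the HiSeq pools the CpG-rich starts gave 8.88-fold and 4.06-fold, and in the GAIIx pools 7.25-fold and 3.26-fold. From 2 to 5 kb downstream NABP2 was the denser at CpG-rich starts, at 8.87-fold against 6.86-fold, while at the other starts both stood near 2-fold, at 1.95 for NABP1 and 1.99 for NABP2. GC-rich surroundings went with these values: 8.09% of NABP1 sites and 6.52% of NABP2 sites had at least 55% GC in the kilobase around them, against 1.82% of 1-kb bins of the genome. The part of base composition in the start profile was not tested.

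Single genes showed the displacement only in part. Among the 12 protein-coding starts with the most sites from 1 kb upstream to 5 kb downstream, NABP1 was higher within 1 kb of the start at 6 and NABP2 was higher from 1 to 5 kb downstream at 11. The starts were ranked by mean sites per 100000 in that zone, where a NABP2 site weighs more, which favours starts high for NABP2. The share over all starts was not counted, so both counts are a description. At Ptbp1, which encodes a splicing repressor, 11 NABP1 sites and 1 NABP2 site lay within 1 kb, and 28 and 33 lay from 1 to 5 kb downstream, or 14.9 and 37.4 per 100000. At Brd2, which encodes a BET bromodomain protein, 13 NABP1 and 3 NABP2 sites lay within 1 kb, or 6.90 and 3.40 per 100000. Beyond, 42 and 26 lay from 1 to 5 kb downstream, or 22.3 and 29.5 per 100000. Id3, an inhibitor of basic helix-loop-helix factors, went the other way, with 10.1 NABP1 and 18.1 NABP2 sites per 100000 within 1 kb and 17.5 and 14.7 beyond. At Tuba1b, an alpha-tubulin gene, the values within 1 kb were 12.7 and 11.3 per 100000.

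NABP2 sites lay more often inside genes. Of NABP2 sites 65.8% fell inside protein-coding genes, against 61.2% of NABP1 sites, a ratio of NABP1 to NABP2 of 0.930 (0.925 to 0.936). The shares were 66.5% and 62.5% in the shared lane and 62.7% and 59.6% in the GAIIx pools. Introns held 59.4% of NABP2 and 53.8% of NABP1 sites, whereas exons held more of NABP1, at 7.38% against 6.46%. The share inside genes but farther than 5 kb from a start was 45.0% for NABP2 and 41.0% for NABP1, so the difference was also present away from starts. NABP1 had more sites farther than 5 kb from any gene, at 25.3% against 21.5%, with 24.2% and 21.0% in the shared lane. Within 1 kb of gene ends the shares were 3.59% and 3.52%, with a ratio of 1.02 (0.979 to 1.06), and no difference was detectable there at this depth.

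**Figure D2:**
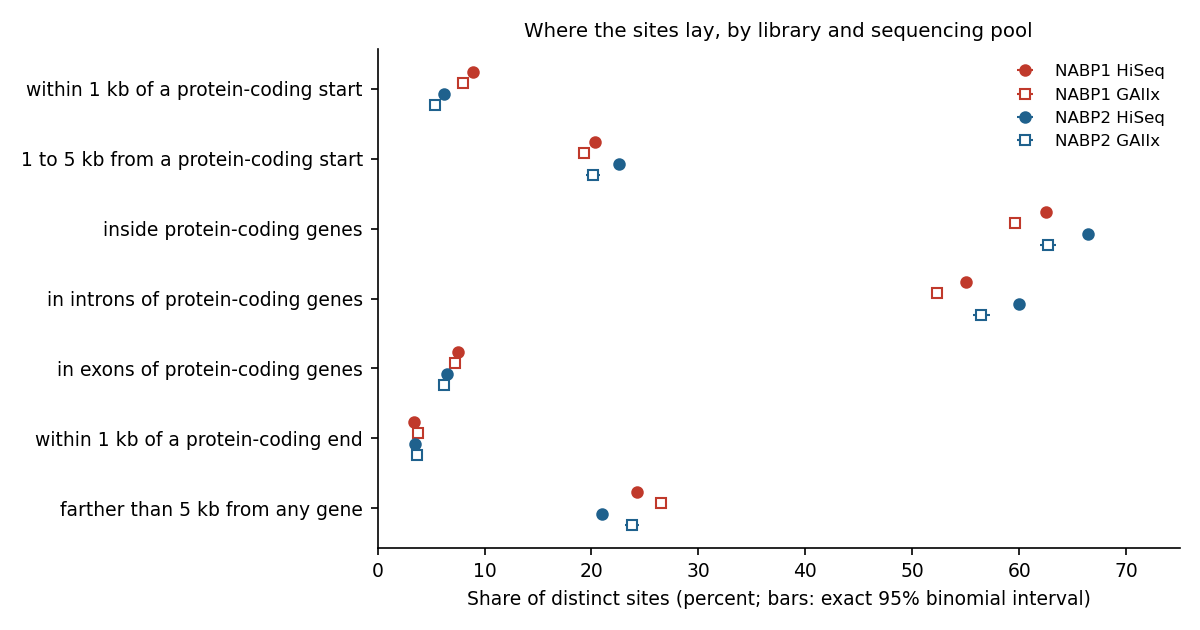
Share of distinct sites in each class of position (x axis, percent), with filled circles for HiSeq and open squares for GAIIx pools, NABP1 in red and NABP2 in blue, and bars for exact 95% binomial intervals, most of which are smaller than the symbols. Within 1 kb of a start both NABP1 pools lie to the right of both NABP2 pools, at 8.91% and 8.003% against 6.26% and 5.39%, while for the share inside genes the NABP1 HiSeq and the NABP2 GAIIx pools lie close together, at 62.5% and 62.7%.

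Between pools of the same protein the gene-body share moved nearly as much as between proteins. NABP1 HiSeq entries had 62.5% and NABP2 GAIIx entries 62.7% inside genes, although in either instrument NABP2 was the higher. For the share within 1 kb of a start, in contrast, both NABP1 pools were above both NABP2 pools, and the difference between proteins was 2.65 points in HiSeq and 2.61 points in GAIIx. Along 9711 genes of at least 20 kb, the first 10% of the gene held 3.79-fold for NABP2 and 3.26-fold for NABP1. The stretch from 10% to 20% held 2.52-fold and 1.91-fold, and that from 90% to 100% held 0.860-fold and 0.978-fold. NABP2 was thus the denser early in long genes and NABP1 the denser at their far end. By gene length, genes of 50 to 200 kb were at 1.92-fold for NABP2 and 1.67-fold for NABP1, while genes under 10 kb were at 4.24-fold and 4.50-fold. The viral orientation showed no preference for the gene's strand, with 50.1% of NABP1 and 50.6% of NABP2 sites on it.

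NABP2 sites also lay closer to one another. With NABP1 thinned to the 88204 sites of NABP2, 34.2% of NABP2 sites (33.9 to 34.5) and 28.0% of NABP1 sites (27.7 to 28.3) had another site of their library within 1 kb, against 6.58% for uniform positions. In the shared lane, at 72909 sites each, the shares were 31.8% and 26.5%. At 15333 sites each they were 11.5% for NABP2 HiSeq, 11.8% for NABP2 GAIIx, 8.52% for NABP1 HiSeq and 7.87% for NABP1 GAIIx. Both GAIIx pools held an excess of same-strand sites 1 to 3 bases apart, with 42.0 pairs at 1 base per 10000 sites in NABP1 and 43.0 in NABP2, against 5.01 and 4.94 in the HiSeq pools. After sites of 1 strand within 5 bases were merged, a step applied to single pools after the data had been seen, the GAIIx shares were 10.2% for NABP2 and 7.47% for NABP1.

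The ratio of NABP1 to NABP2 was lower in windows where another fusion library was denser. The genome was cut into 10-kb windows and these were grouped by their number of sites for INTS3, the partner of both proteins in SOSS. Windows without an INTS3 site held 42.9% of NABP1 and 38.8% of NABP2 sites, a ratio of 1.11 (1.10 to 1.12). The 350 windows with 10 or more INTS3 sites held 4.24% and 5.17%, a ratio of 0.820 (0.792 to 0.850), with 0.803 (0.770 to 0.838) in the shared lane and 0.828 (0.769 to 0.892) in the GAIIx pools. NABP2 thus had the larger share of its sites where INTS3 was dense. INTS3 was sequenced on the flow cell of the NABP2 GAIIx entries, and the HiSeq ratios share no run with it. Grouping by INTS9, a subunit of the Integrator cleavage module sequenced mostly on the HiSeq flow cell of both proteins, gave 1.14 (1.12 to 1.15) in windows without a site and 0.838 (0.807 to 0.870) in the 419 windows with 10 or more.

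**Figure D3:**
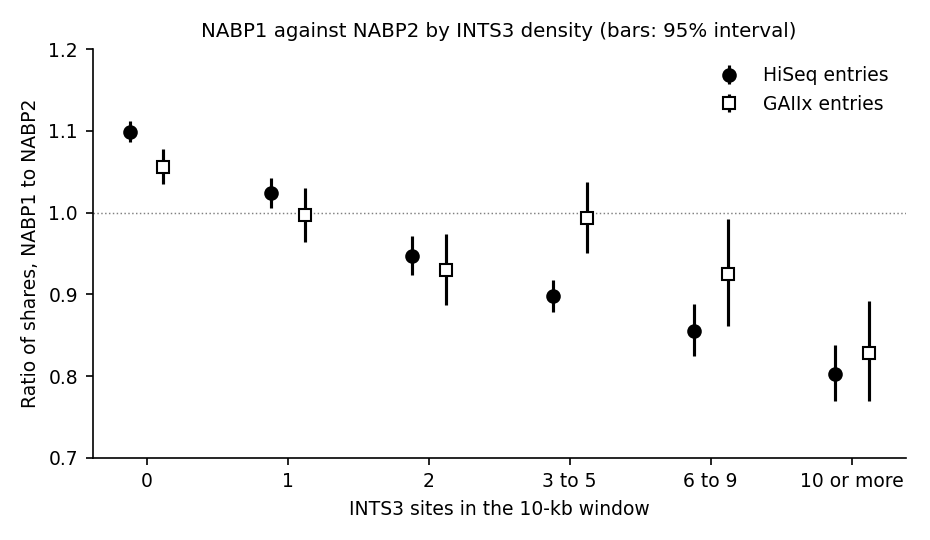
Ratio of the share of NABP1 sites to the share of NABP2 sites (y axis) in 10-kb windows grouped by their number of INTS3 sites (x axis), with filled circles for HiSeq and open squares for GAIIx entries and bars for 95% intervals of counting error. The HiSeq ratio goes from 1.10 in windows without an INTS3 site to 0.803 in those with 10 or more, and the GAIIx ratio from 1.06 to 0.828, with 0.993 in windows with 3 to 5.

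The nearness of the 2 proteins was of the size seen between pools of 1 protein. With every pool thinned to 15333 sites, an average of 9.41% of HiSeq sites of either protein had a HiSeq site of the other within 1 kb. In the same measure the HiSeq and GAIIx pools of NABP1 gave 7.71%, and those of NABP2 gave 10.05%. INTS3 gave 7.06% with NABP1 HiSeq and 7.93% with NABP2 HiSeq, and INIP gave 3.85% and 4.51%. Across 2649 windows of 1 Mb, the Spearman correlation of the thinned site counts was 0.753 between the HiSeq pools of the 2 proteins, 0.726 between the NABP1 pools and 0.757 between the NABP2 pools, where all windows share the gene and base content of the genome.

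Larger regions were compared in the same way. In the whole libraries the ratio of density over a chromosome lay between 0.952 on chromosome 13 and 1.06 on chromosome 1. The pools spread more and not alike: in the shared lane the ratio ran from 0.903 on chromosome 15 to 1.16 on chromosome 6, and in GAIIx from 0.854 on chromosome 9 to 1.19 on chromosome 15. Of 2649 windows of 1 Mb, 2233 had a mean of at least 10 sites per 100000 and a median ratio of 1.03. NABP1 was at least 2-fold higher in 74 of them (3.31%) and NABP2 in 10 (0.448%). With 100-kb windows and the same minimum mean the balance was the reverse, at 30 for NABP1 and 140 for NABP2. That minimum asks for a higher density in smaller windows, so window size and filter changed together. The interval of the ratio lay above 1 in 86 of the 1-Mb windows and below 1 in 81. The largest ratio was that of chr8:29000001-30000000, with 35 NABP1 and 4 NABP2 sites, at 4.10 (1.47 to 15.9). The lowest with an interval below 1 was that of chr9:10000001-11000000, with 11 and 16 sites, at 0.322 (0.135 to 0.738).

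Some clusters of genes for U RNAs, the RNAs of the spliceosome and of ribosomal RNA processing, were dense targets of both proteins. Integrator is known to process the snRNAs of this group. Annotated U1, U2, U3, U4, U5 and U7 models with a copy of the same name within 50 kb formed 22 clusters, and 8 of these, with 33 models, held at least 20 NABP1 sites. Within 5 kb of these models NABP1 stood at 31.0-fold over uniform (28.6 to 33.6, 597 sites) and NABP2 at 46.98-fold (42.6 to 51.7, 423 sites). These 8 were chosen by NABP1 sites, so their level is a description. Over all 22 clusters NABP1 stood at 17.6-fold (16.2 to 19.1, 600 sites) and NABP2 at 26.6-fold (24.15 to 29.3, 425 sites). The ratio of NABP1 to NABP2 over all 22 was 0.661 (0.583 to 0.750), with 0.702 in the shared lane and 0.393 in the GAIIx pools.

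The instrument moved with the sites next to these genes. In the kilobase downstream of the models NABP1 had 15.1 and NABP2 21.95 sites per 100000 in the HiSeq pools, or 16 sites each, and 83.3 and 450.0 in the GAIIx pools, or 69 sites each. From 1 to 2 kb downstream the values were 83.2 and 123.4 in the HiSeq pools and 137.6 and 358.7 in the GAIIx pools. Upstream, over 5 kb, all 4 pools lay between 96.4 and 130.4 per 100000. The excess of NABP2 in the whole libraries thus held GAIIx values within 2 kb downstream that the HiSeq pools did not show, and the part of read length and of mapping between near-identical copies in it was not tested. The cluster of 2 U5 models at chr9:65044379-65049648 had 50 NABP1 and 45 NABP2 sites, a ratio of 0.520 (0.341 to 0.796), and the cluster of 2 U1 models at chr11:87236369-87240381 had 53 and 44, a ratio of 0.564 (0.371 to 0.861). U RNA genes have near-identical copies, so sites beside single members are uncertain.

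**Figure D4:**
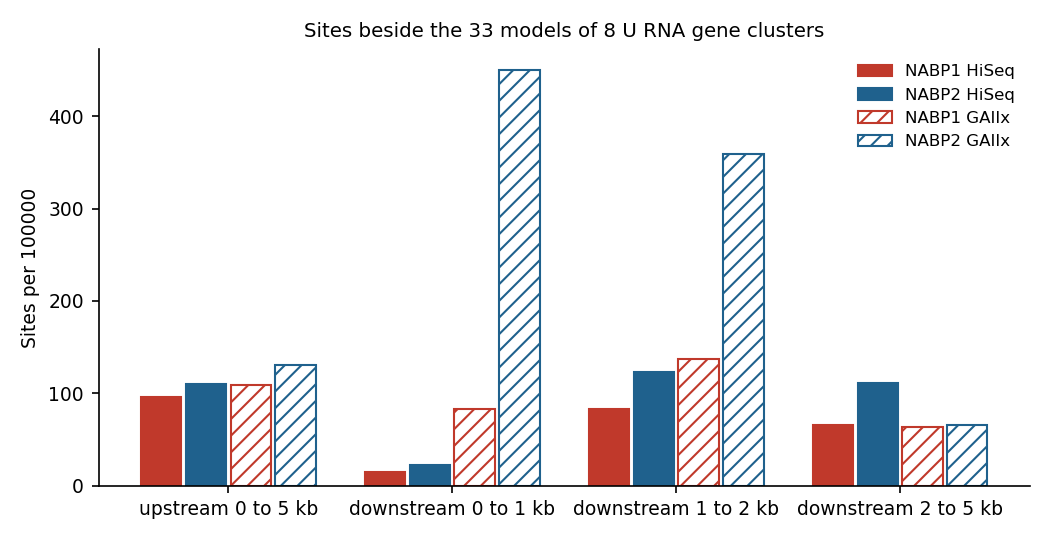
Sites per 100000 (y axis) by place relative to the nearest of 33 U RNA gene models in 8 clusters (x axis, in the direction of transcription), with filled bars for HiSeq and hatched bars for GAIIx pools, NABP1 in red and NABP2 in blue. The NABP2 GAIIx bar is the highest within 2 kb downstream, at 450.0 and 358.7, while upstream all 4 bars lie between 96.4 and 130.4.

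Genes were compared over the gene and 5 kb on each side. Of 32044 annotated genes that are not pseudogenes, 2560 had a mean of at least 10 sites per 100000 over the 2 libraries, and 2329 of these were protein-coding. NABP1 was at least 2-fold higher at 44 of them (1.72%) and NABP2 at 199 (7.77%). In the shared lane the counts were 57 (2.23%) and 220 (8.59%), and 26 and 121 genes passed 2-fold both in the whole libraries and in the lane. The interval of the ratio left out 1 at 12 and 109 of these. The median ratio was 0.851, and 66.8% of the 2560 genes had a ratio below 1. Scaled to that median, the counts became 98 for NABP1 and 78 for NABP2, as scaling to the median evens the sides by its construction. In the mean used as the filter a NABP2 site weighs more than a NABP1 site, so genes with more NABP2 sites pass more easily. Without the filter 24249 genes were compared, with NABP1 2-fold higher at 8141 (33.6%) and NABP2 at 4968 (20.5%). At a mean of at least 20 the counts were 0 and 48 of 623 genes. The median and the counts therefore describe the filtered genes only.

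The 8 genes with the highest mean all had more NABP2 than NABP1 sites per 100000, and 5 had an interval below 1. All 8 were also higher for NABP2 in the shared lane and 7 in the GAIIx pools. The 8 genes were ranked by the same mean, in which a NABP2 site weighs more, so their shared direction is a description. At Myh9 (chr15:77591017-77672605, minus strand), the heavy chain of non-muscle myosin, NABP1 had 64.3 sites per 100000 in HiSeq and 67.6 in GAIIx, and NABP2 had 138.5 and 104.4. Both NABP1 values were below both NABP2 values, and the ratio was 0.496 (0.382 to 0.644) in the whole libraries and 0.648 (0.366 to 1.21) in GAIIx.

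Trio (chr15:27660407-27955603) had 59.55 NABP1 and 120.7 NABP2 sites per 100000 in HiSeq and 39.8 and 65.2 in GAIIx, with a ratio of 0.459 (0.342 to 0.614) in the whole libraries and 0.611 (0.294 to 1.39) in GAIIx. Ski, a transcriptional co-repressor of TGF-beta signalling, had a ratio of 0.526 (0.396 to 0.699), and Plec, the cytoskeletal linker plectin, 0.637 (0.488 to 0.833). At Neat1, the RNA that scaffolds paraspeckles, the ratio was 0.751 (0.565 to 1.004), and at Brd2 it was 0.786 (0.586 to 1.06). The window of Fgfr2, whose gene model covers 3009 kb and other genes, had a ratio of 0.995 (0.791 to 1.26). Tex14, a gene known from germ cells, had 116.2 and 173.5 sites per 100000, but 90.0% of its NABP1 and 85.6% of its NABP2 sites lay within 5 kb of the 6 U1 and U3 models inside its window.

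The genes with the largest ratios rested on few sites. Those highest for NABP1 by the naming rule were Parp6, Hs6st3, Lrrc7, Gbe1, Sbf2, Odz2, Nek7, Pde4dip, Heatr7a and Smad6, with ratios from 2.04 to 3.63. Gbe1 (chr16:70314194-70569961), the glycogen branching enzyme, had 25 NABP1 and 5 NABP2 sites in HiSeq and 17 and 1 in GAIIx, a ratio of 3.20 (1.35 to 9.22). Odz2, a teneurin that spans 1229 kb, had 53 NABP1 and 9 NABP2 sites, a ratio of 2.76 (1.35 to 6.36). Smad6, an inhibitor of BMP signalling, had 48 and 11, a ratio of 2.04 (1.05 to 4.36). They were chosen on whole libraries, which include the GAIIx sites, so their GAIIx direction is no separate check. NABP2 had at most 3 GAIIx sites at any of them, and no GAIIx interval left out 1.

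Those highest for NABP2 were Csrp2, Pfdn2, Gdi2, Ttyh3, Pgrmc2, Cacna1h, Slc35e4, Epn2, Pacs2 and Slc38a4, with ratios from 0.250 to 0.319. Csrp2, a LIM domain protein, had 1 NABP1 and 15 NABP2 sites in HiSeq but 7 and 0 in GAIIx. Epn2, an endocytic epsin, had 15 NABP1 and 23 NABP2 sites, a ratio of 0.305 (0.148 to 0.611). Gdi2, which keeps Rab proteins soluble, had 12 and 20, a ratio of 0.281 (0.125 to 0.603). In the GAIIx pools 6 of these 10 genes had a ratio below 1, and no interval left out 1. The median GAIIx ratio over all 2560 genes compared was also below 1, at 0.925. These 10 too were chosen on whole libraries, which include the GAIIx sites, so their GAIIx direction is no separate check. Among the filtered genes, those 2-fold higher for NABP1 had a median length of 128.9 kb and those higher for NABP2 35.0 kb. The median of all genes compared was 54.0 kb. Without the filter the length classes did not follow this order. Protein-coding genes of 50 to 200 kb were denser for NABP2, at 1.92-fold against 1.67-fold. Those under 10 kb were denser for NABP1, at 4.50-fold against 4.24-fold. The lengths therefore describe the filtered genes only.

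Genes chosen by their ratio in the HiSeq pools were also read in the GAIIx pools. The 57 genes at least 2-fold higher for NABP1 in HiSeq had a summed ratio of 2.54 there, by their choice, and of 0.752 (0.626 to 0.906) in GAIIx. The 220 genes higher for NABP2 had 0.415 in HiSeq and 0.778 (0.709 to 0.853) in GAIIx. All 2560 genes had 0.843 (0.831 to 0.856) and 0.867 (0.843 to 0.891). Both chosen sets thus lay below 1 in GAIIx, as all genes did. All 2560 genes had passed a filter on the whole libraries, which include the GAIIx sites. A gene with few NABP2 sites in HiSeq passes that filter more easily when it has many in GAIIx. The GAIIx values of both sets are therefore no separate check, and whether the HiSeq differences recur was not tested. Of the 57 genes, 13 passed 2-fold in the same direction in GAIIx and 14 in the other. Of the 220 genes, 57 passed in the same direction and 35 in the other. GAIIx ratios are imprecise, since NABP2 had 15333 sites there, and 573 of all 2560 genes passed 2-fold for NABP1 and 499 for NABP2. The start profile, the gene-body share and the clustering, which use no gene filter, had the same direction in both pools.

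**Figure D5:**
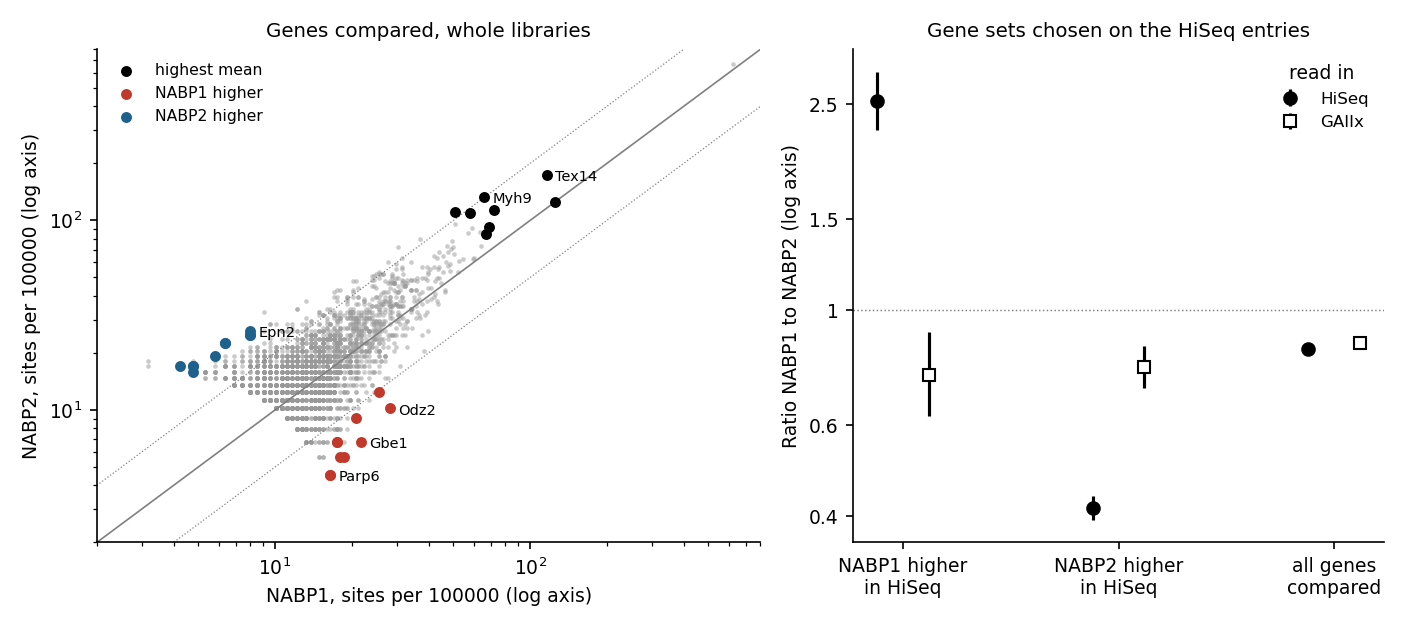
Left, sites per 100000 for NABP1 (x axis) and NABP2 (y axis), both on log axes, for 2560 genes of the whole libraries, with the named genes in colour, a line of equality and dotted lines at 2-fold. Right, summed ratio of NABP1 to NABP2 (log axis) with 95% intervals for genes chosen on HiSeq entries and read in each pool: in GAIIx the genes chosen as NABP1-higher give 0.752 and those chosen as NABP2-higher 0.778, beside the 0.867 of all genes. The genes had passed a filter that includes GAIIx sites, so the GAIIx ratios are no separate check.

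Gene lists of the functions of SOSS and Integrator and of fibroblasts were read as summed sites with 5 kb on each side. Replication-dependent histone genes, which make mRNAs without poly(A) tails, stood at 17.7-fold over uniform for NABP1 (16.1 to 19.3) and 23.6-fold for NABP2 (21.0 to 26.4), a ratio of 0.749 (0.648 to 0.868), with 0.785 in the shared lane and 0.764 (0.553 to 1.07) in GAIIx. Of their 67 members 34 passed the filter and 27 of these had a ratio below 1, beside 66.8% of all genes compared. Past 2-fold were 1 for NABP1 and 3 for NABP2, near the 1.72% and 7.77% of all genes. Their median ratio was 0.708, beside 0.851 over all genes compared. The member with the highest mean was Hist2h3c1 with 36 NABP1 and 27 NABP2 sites, a ratio of 0.624 (0.369 to 1.07). Without the flanks the histone ratio was 1.03 (0.788 to 1.35). Histone genes lie in clusters, so neighbours share sites.

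Actin cytoskeleton genes of fibroblasts had the lowest ratio of the protein-coding lists in the whole libraries, at 0.695 (0.632 to 0.765), with 0.729 in the shared lane and 0.780 (0.624 to 0.984) in GAIIx. Of 25 members 21 passed, and 14 of these had a ratio below 1, a share near the 66.8% of all genes compared. The interval was below 1 at 6 of the 21 and above 1 at none, beside 9.49% and 0.781% of all genes compared. An interval leaves out 1 more easily where a gene holds more sites. The list and all genes compared were not matched for that, so this count is a description. The 2 past 2-fold, again near the 7.77% of all genes, were Myh9 and, chosen after its values were seen, Palld, an actin-binding scaffold with 57 NABP1 and 64 NABP2 sites, at 0.417 (0.287 to 0.605). Their median ratio was 0.740.

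The long nuclear RNAs Neat1 and Malat1 together gave 0.701 (0.572 to 0.861), with 0.745 in the shared lane and 0.517 in GAIIx, and Malat1 alone 0.650 (0.483 to 0.877). SR splicing factor genes gave 0.777 (0.644 to 0.939), snRNA gene models 0.823 (0.769 to 0.882), and collagen and matrix genes 0.861 (0.750 to 0.989). These ratios sum all members of a list, whereas the median of 0.851 is over genes past the filter, so the 2 are unlike measures. The members past the filter had median ratios of 0.680 for SR splicing factor genes, 0.702 for snRNA models and 0.979 for collagen and matrix genes. Over all sites inside protein-coding genes, without flanks or filter, the ratio was 0.930. Whether the 3 lists differ from genes at large was not tested. For the collagen and matrix genes the ratio in GAIIx was 1 (0.717 to 1.43).

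For most other lists the interval of the ratio included 1. It was 0.995 (0.875 to 1.13) for cytosolic ribosomal protein genes, 0.895 (0.777 to 1.03) for immediate early genes, 0.936 (0.701 to 1.26) for snoRNA host genes and 0.954 (0.785 to 1.16) for chaperone genes. Genes of homologous recombination and DNA damage signalling, the process in which SOSS is best known, gave 1.09 (0.890 to 1.33), with 1.26 in the shared lane and 0.791 (0.525 to 1.23) in GAIIx, and 4 of 31 passed the filter with none past 2-fold. For p53 target genes the ratio was 1.09 (0.859 to 1.39), for Integrator and SOSS genes 1.15 (0.857 to 1.55) and for Hox genes 1.21 (0.822 to 1.81). The exception was the list of olfactory receptor genes, silent in fibroblasts, which stood at 0.366-fold for NABP1 and 0.264-fold for NABP2, a ratio of 1.38 (1.11 to 1.74), although 1.05 (0.693 to 1.64) in GAIIx. Of the other tissue lists, neuronal genes gave 1.11 (0.820 to 1.52), epithelial genes 1.14 (0.648 to 2.10) and blood genes 0.936 (0.418 to 2.24), and hepatocyte genes held 9 NABP1 sites and 1 NABP2 site.

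The genes of the 2 proteins themselves, Obfc2a (Nabp1) and Obfc2b (Nabp2) in the annotation, did not pass the filter as targets. Obfc2a held 9 NABP1 and 6 NABP2 sites, a ratio of 0.702 (0.223 to 2.40). Obfc2b held 19 and 5, a ratio of 1.78 (0.642 to 6.10).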

How the data were processed

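The deposited values are neither counts nor signal but other values, genome positions: per the file headers, each row gives 1 junction as the first genomic base after the LTR in mm9 with its strand, and a read name with 2 numbers, the first read here as a read number. The aligner is not given in the sources used here. Per the labels, sequencing was paired-end on GAIIx (70 bases) or HiSeq (100 bases). Rows were reduced to distinct sites, and pools were taken from the flow cell and lane in the read names. Genes came from GENCODE M1 on the same build. Shares carry exact binomial, densities exact Poisson and gene or list ratios exact conditional 95% intervals, and ratios of shares a log-normal one; with 1 library a protein they are no test. Genes with a mean under 10 sites per 100000 were left out, and called meant at least 2-fold. Larger sets were thinned to the smaller size, as the mean of 10 draws. Named genes were the 8 with the highest mean, the 10 largest ratios each way among genes past 2-fold in the whole libraries and the lane whose interval left out 1, the top 2 of each list, and the genes of both proteins. Members and the 19 lists were chosen with earlier results of these data known. Python 3.11.15, numpy 2.4.6 and scipy 1.17.1 were used, and the scripts were tested on simulated data. Alternatives were other units of counting, flanks, folds, filters, scaling and pools.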

Additional observations from a re-analysis of the deposited data

Results flagged for a closer look

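The NABP2 entries from GAIIx shared 100 exact positions with the INIP library, 0.652% of the sites of that pool. INIP is outside the comparison and was only set beside the HiSeq pools of both proteins in the nearness values. The number stood out because it is above that of the other pools with INIP. It came to 26.2 shared positions per 1e8 possible pairs. The other values were 1.21 for NABP2 HiSeq with INIP, 0.797 for NABP1 HiSeq with INIP and 1.89 for NABP1 GAIIx with INIP. The NABP2 GAIIx entries and the INIP library came from 1 flow cell. The NABP2 GAIIx pool also shared 92 exact positions with SPT5, at 7.31 per 1e8 pairs. It stood at 6.50 with NELFA, 6.34 with INTS11 and 5.43 with the GAIIx entries of INTS9, but at 2.64 with INTS3 and 1.62 with the HiSeq entries of INTS9. The positions shared with INIP had a median read number of 6 in the NABP2 pool, against 29 for its other sites, and of 3 in INIP. Of the shared positions 3 lay within 5 kb of a U RNA cluster model, and the density beside these models in the NABP2 GAIIx entries, with close sites merged, was 96.81-fold with the shared positions and 96.78-fold without them.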

How the results depend on the processing

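Ratios are NABP1 to NABP2. Settings marked as added were chosen after seeing the data. Of 58 recomputed shares and clustering values 42 stayed within their interval and 16 moved, and the direction changed only for the shares within 5 kb of a start and within 1 kb of an end, whose intervals in the whole libraries included 1. With GAIIx entries (added) the ratio was 1.48 within 1 kb of a start, 1.07 within 5 kb of a start, 0.951 inside genes and 1.12 farther than 5 kb from genes. In the shared lane it was 0.940 inside genes and 1.15 far from them, and with sites of at least 5 reads 0.9205 and 1.21. Clustering gave 0.953 with all entries, 0.773 with at least 5 reads, 0.8335 in the lane, 0.664 in GAIIx (added), 0.736 and 0.831 in GAIIx and the lane with sites within 5 bases merged (added), 0.725 for 100 bases and 0.920 for 5 kb.

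Gene counts past 2-fold, for NABP1 and where it moved NABP2, were 76 with at least 5 reads, 75 in the lane with the filter applied there, 306 and 779 in GAIIx (added), 25 without flanks, 112 with 20-kb flanks, 397 and 551 at a mean of at least 5, 0 and 48 at a mean of at least 20, 8141 and 4968 without a filter, and 98 and 78 after scaling by the median. At 1.5-fold they were 182 and 627, and at 3-fold 6 and 17. Counts of regions were 30 and 140 with 100-kb windows, 277 and 172 in GAIIx (added), and 19 for NABP2 in the lane. Of 54 list values 10, in 9 of 19 lists, reached or crossed 1. In 2 of these the interval had excluded 1 before, the histone genes without flanks at 1.03 and the collagen genes in GAIIx (added) at 1. The cause of these changes was not tested. No paired analysis was possible because each protein had 1 library. NABP2 GAIIx had 15333 sites, which limits what single genes can show there.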

Other observations

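Sites on opposite strands at the offset of 5 bases between deposited positions were more frequent than at other offsets. NABP1 HiSeq held 142 such pairs (13.4 per 10000 sites), NABP2 HiSeq 84 (11.5), NABP1 GAIIx 84 (10.1) and NABP2 GAIIx 6 (3.91). At position -2 from the junction, C made up 17.6% of NABP2 GAIIx sites, against 12.5% in NABP2 HiSeq and 11.9% in NABP1 GAIIx. The median read number of a site was 29 in NABP2 GAIIx, 13 in NABP1 GAIIx, 8 in NABP2 HiSeq and 7 in NABP1 HiSeq.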
